A study of Mus musculus with 2 samples.

Results

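The mir-30 family of microRNA genes was measured in embryonic mouse midbrain (B6NCrl strain, embryonic day 10.5). Its 6 genes, Mir30a, Mir30b, Mir30c-1, Mir30c-2, Mir30d and Mir30e, were taken by gene identifier from 1973 counted microRNA genes, and all 6 had at least 10 reads in both libraries. The samples form 1 group of 2 biological replicates, libraries of small RNA under 30 nt. Replicate 1 pooled the midbrains of 69 embryos and replicate 2 those of 51, male and female together and described as healthy. No other tissue, stage or treatment was sampled, so the data give levels, their order and how closely the replicates match. Whether fewer cells of a type or less microRNA per cell underlies a level cannot be told apart in whole tissue. With n = 2, every SD below rests on 2 pools.

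MicroRNAs bind messenger RNAs mostly through their seed, bases 2 to 8 of the mature strand, and the mature strand is cut from either arm of a hairpin precursor, named 5p and 3p. The mir-30 genes have the same 5p seed, so their 5p products are thought to repress overlapping sets of messenger RNAs. The family is known from many differentiated tissues, among them kidney, heart and muscle, and in mouse bone-forming cells it is known to repress Smad1 and Runx2, regulators of bone formation. In the mouse the 6 genes lie as pairs at 3 loci.

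The 5p sequences show what the members share and what tells them apart. RefSeq sequences (GRCm38.p6, the build of mm10) were found for 4 of the 6 genes, Mir30a, Mir30c-1, Mir30c-2 and Mir30e, together with Mir384, the only gene outside the family in that table with the same 5p seed. Capitals mark the seed.
miR-30e-5p: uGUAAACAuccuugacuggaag
miR-30a-5p: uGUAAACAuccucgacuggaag
miR-30c-5p: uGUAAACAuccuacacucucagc
miR-384-5p: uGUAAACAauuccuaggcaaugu
The 5p strands of Mir30a and Mir30e differ in 1 of 22 positions, C13U, counted from 1 at the 5′ end with the base of Mir30a first. Those of Mir30a and Mir30c differ in 5 of 22. Mir30c-1 and Mir30c-2 have the same 5p strand, whole and without a difference. Of the 1058 genes with a mature entry there, 5 had the seed, 4 of them members.

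The 3p strands fall into 2 seed groups and are shown because they are the strands by which the Mir30c genes can be told apart.
miR-30e-3p: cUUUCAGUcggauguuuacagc
miR-30a-3p: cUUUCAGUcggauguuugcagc
miR-30c-1-3p: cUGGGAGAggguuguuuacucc
miR-30c-2-3p: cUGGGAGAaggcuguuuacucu
Here Mir30a and Mir30e again differ in 1 position, G18A, and Mir30c-2 and Mir30c-1 in 3 of 22, A9G, C12U and U22C. Within each group the seeds are equal, while the groups do not share one.

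Around the common 5p strand, the Mir30c precursors share a longer stretch, capitals in the precursors below.
Mir30c-1 precursor: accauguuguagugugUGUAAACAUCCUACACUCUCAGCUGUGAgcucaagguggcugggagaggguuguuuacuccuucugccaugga
Mir30c-2 precursor: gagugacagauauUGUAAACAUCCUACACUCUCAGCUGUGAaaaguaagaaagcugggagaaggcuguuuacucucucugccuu
The shared stretch is 28 bases long and begins with the first base of the 5p strand. Reads in these libraries were shorter than 30 nt, and reads that mapped to several places were held in a row of their own, outside the gene counts. A read that lies within the 28 bases fits both loci exactly. Between the precursors of Mir30a and Mir30e the longest shared stretch was 18 bases, and for the other 4 pairs of precursors compared it was 12 bases.

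Mir30e and Mir30c-1 lie on chromosome 4 in introns of Nfyc, which codes for a subunit of the CCAAT-binding factor NF-Y, on the strand of Nfyc. Mir30e (ENSMUSG00000065409.1) is at chr4:120772606-120772697 and Mir30c-1 (ENSMUSG00000065490.1) at chr4:120769534-120769622, both on the minus strand and 2983 bases apart. Mir30a (ENSMUSG00000065405.2) is at chr1:23272269-23272339 on the plus strand, where no other annotated gene overlaps it. Its partner Mir30c-2 (ENSMUSG00000065567.1) is at chr1:23291701-23291784, 19361 bases away, within an exon of the noncoding RNA gene Gm27028. Mir30d (ENSMUSG00000065437.1) is at chr15:68341208-68341289 on the minus strand and overlaps exons of the noncoding RNA gene Gm20732 and of the unclassified transcript Gm37296. Mir30b (ENSMUSG00000065476.2) is at chr15:68337415-68337510, 3697 bases from Mir30d, and overlaps an exon of the noncoding transcript Gm26621. Coordinates are those of mm10, 1-based.

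The family made up 4.21% of gene-assigned reads in replicate 1 (95% Wilson interval 4.19 to 4.23%) and 3.33% in replicate 2 (3.31 to 3.35%), a mean of 3.77% ± 0.620 (SD, n = 2). These are 138791 of 3297835 and 122684 of 3682410 reads. The intervals cover counting error only, since reads lack molecular identifiers and are not independent molecules. All reads of the 6 genes, 100% in both libraries, lay in the count column that was read as the gene's own strand. Nearly all the family's reads came from 3 genes, Mir30e, Mir30a and Mir30d, with 99.3% in replicate 1 and 99.1% in replicate 2.

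Mir30e was the most abundant member. It had 73129 reads, or 22175 CPM (reads per 1000000 gene-assigned reads), in replicate 1 and 60276 reads, or 16369 CPM, in replicate 2. Its mean level was 19272 ± 4106 CPM (SD, n = 2), rank 12 of all genes, with rank 10 in replicate 1 and rank 13 in replicate 2. It held 50.9% ± 2.52 of the family's reads.

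Mir30a followed with 43054 reads (13055 CPM) in replicate 1 and 41452 reads (11257 CPM) in replicate 2, a mean of 12156 ± 1272 CPM. Its rank among all genes was 17, and it held 32.4% ± 1.96 of the family's reads. Mir30d had 21671 reads (6571 CPM) in replicate 1 and 19829 reads (5385 CPM) in replicate 2, a mean of 5978 ± 839 CPM at rank 41. It held 15.9% ± 0.388 of the family's reads. Each of these 3 genes had its higher CPM in replicate 1.

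The other 3 members were present at far lower levels. Mir30b had 523 reads (159 CPM) in replicate 1 and 571 reads (155 CPM) in replicate 2, a mean of 157 ± 2.49 CPM. Mir30c-1 had 281 reads (85.2 CPM) in replicate 1 and 373 reads (101 CPM) in replicate 2, with a mean of 93.2 ± 11.4 CPM. The lowest, Mir30c-2, had 133 reads (40.3 CPM) in replicate 1 and 183 reads (49.7 CPM) in replicate 2, with a mean of 45.0 ± 6.62 CPM. These genes ranked 193, 225 and 264, and together they held 0.675% of the family's reads in replicate 1 and 0.919% in replicate 2. For the Mir30c genes the values count only reads that fit 1 locus. The reads of their common 5p strand that mapped to several places are among 30.9% (replicate 1) and 29.5% (replicate 2) of the libraries' reads that no gene holds, so both levels, and their share of the family, can be too low. How many of those reads were miR-30c-5p was not analysed here.

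**Figure D1:**
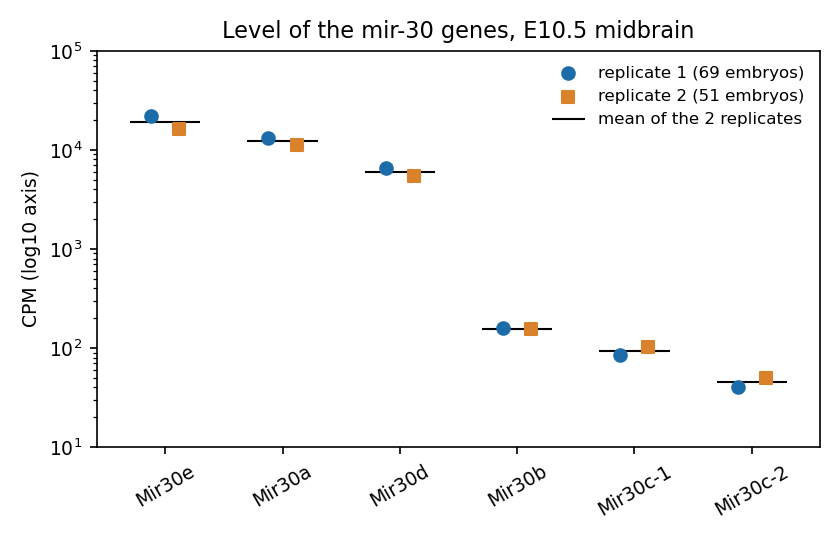
CPM of the 6 mir-30 genes (log10 axis) in replicate 1 (circles, 69 embryos) and replicate 2 (squares, 51 embryos), with the mean as a line. Mir30e, Mir30a and Mir30d lie between 5385 and 22175 CPM and the other 3 genes between 40.3 and 159 CPM.

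The order Mir30e, Mir30a, Mir30d, Mir30b, Mir30c-1, Mir30c-2 was the same in both libraries, and no neighbours in it had overlapping ranges. Mir30e was 1.70 times Mir30a in replicate 1 and 1.45 times in replicate 2, the smallest step in both libraries. Mir30a was 1.99 and 2.09 times Mir30d. The widest step was from Mir30d to Mir30b, 41.4 times in replicate 1 and 34.7 times in replicate 2. Mir30b was 1.86 and 1.53 times Mir30c-1, and Mir30c-1 was 2.11 and 2.04 times Mir30c-2. From top to bottom, Mir30e was 550 times Mir30c-2 in replicate 1 and 329 times in replicate 2. Levels were compared without scaling for length, because the mature strands found are all 22 or 23 bases long. An exact permutation test of 2 values against 2 cannot reach p = 0.05, so none was made.

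**Figure D2:**
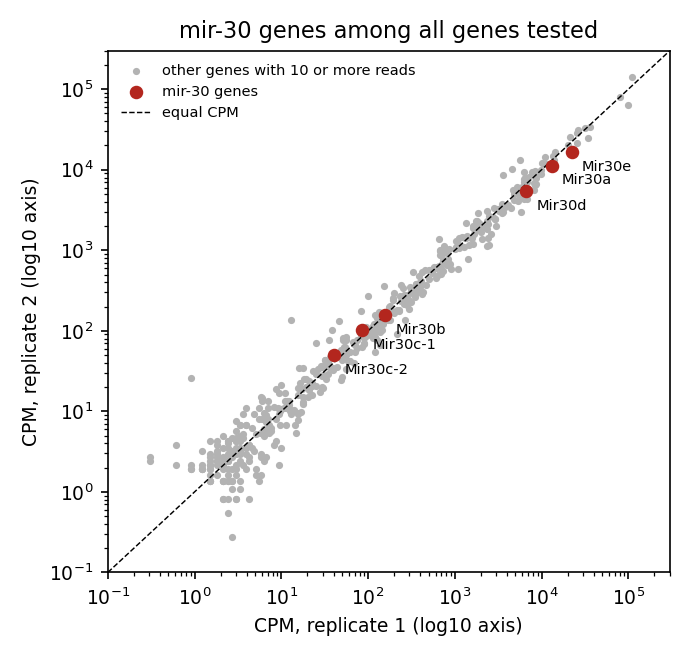
CPM in replicate 1 (horizontal) and replicate 2 (vertical), both log10 axes, for genes with at least 10 reads in sum and reads in both libraries (grey) and for the mir-30 genes (red), with the line of equal CPM. Mir30e, Mir30a and Mir30d lie among the abundant genes and slightly below the line, the other 3 in the middle of the range.

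At each of the 3 loci 1 gene held nearly all the reads, although the genes of a locus lie on the same strand. At the Nfyc locus Mir30e had 260 reads for each read of Mir30c-1 in replicate 1 (95% counting interval 231 to 294) and 162 in replicate 2 (146 to 179). On chromosome 1 Mir30a had 324 reads for each of Mir30c-2 in replicate 1 (273 to 387) and 227 in replicate 2 (196 to 263). On chromosome 15 the ratio of Mir30d to Mir30b was 41.4 in replicate 1 (38.0 to 45.3) and 34.7 in replicate 2 (32.0 to 37.8). This ratio needs no scaling between libraries, and at all 3 loci it was higher in replicate 1, with counting intervals that did not overlap. For the loci with a Mir30c gene it is a ratio to uniquely mapped reads alone.

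**Figure D3:**
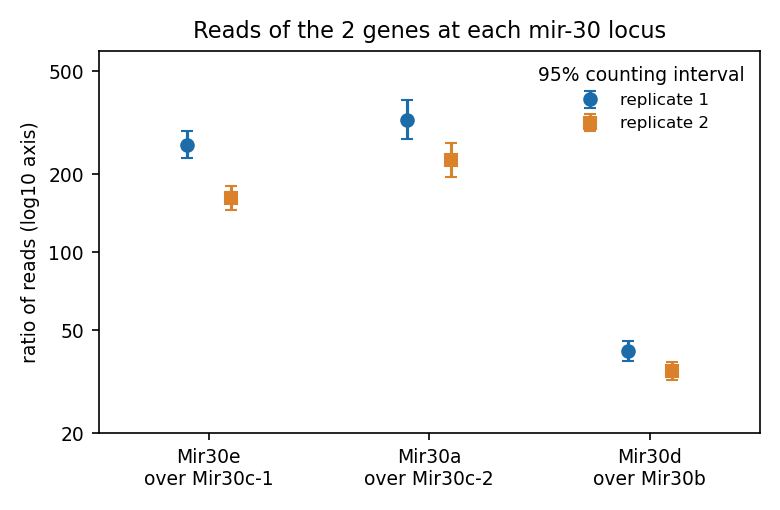
Ratio of the reads of the more abundant gene to those of its partner at the 3 mir-30 loci (log10 axis), in replicate 1 (circles) and replicate 2 (squares), with 95% counting intervals. The ratios lie between 34.7 and 324 and are higher in replicate 1 at each locus.

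Between the replicates, the 3 abundant members differed by more than counting error and the 3 scarce ones did not pass that test. The test can call smaller differences where a gene has more reads, so its calls do not rank the members by size of difference. With library sizes scaled by TMM, a trimmed mean of the genes' ratios, the summed reads of the family were 1.26 times as high in replicate 1 as in replicate 2 (95% counting interval 1.25 to 1.27). An exact two-sided binomial test, which compares these 2 libraries and not conditions, called 3 of the 6 members at an adjusted p of 0.05 (Benjamini-Hochberg over all genes tested), all 3 higher in replicate 1. Of all 485 genes tested, the same test called 49.7% in either direction, 26.6% higher and 23.1% lower in replicate 1, so that 3 of 6 is the share found among all genes. The median log2 ratio of replicate 1 over replicate 2 was 0.12 over the members and 0.02 over all genes tested, with ratios of both signs in each.

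Mir30e had the largest ratio of the 6, a log2 ratio of 0.43 (95% counting interval 0.42 to 0.45), with an adjusted p too small for double precision. Mir30d had 0.28 (0.25 to 0.31, binomial adjusted p = 2.4e-87) and Mir30a 0.21 (0.19 to 0.23, binomial adjusted p = 2.7e-97). Mir30b, at 0.03 (−0.15 to 0.20, binomial adjusted p = 0.86), did not pass, and the sign of its ratio was negative with DESeq2 size factors. Mir30c-1, at −0.25 (−0.48 to −0.03), missed the threshold with a binomial adjusted p of 0.051 and passed it, lower in replicate 1, at 0.027 with DESeq2 size factors. Mir30c-2 had −0.31 (−0.64 to 0.02, binomial adjusted p = 0.12). Both Mir30c genes had negative log2 ratios where the genes beside them, Mir30e and Mir30a, had positive ones. In size, the ratios of Mir30c-1 (−0.25) and Mir30c-2 (−0.31) were larger than that of Mir30a (0.21), which was called on far more reads.

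Counting error is the smallest error these data can have. When the spread between the libraries was estimated over all genes instead, as edgeR's common dispersion from the same 2 libraries (a coefficient of variation of 0.241), edgeR's exact test called none of the 6 members. It called 2 of all 485 genes (0.412%). At an unadjusted p under 0.05 it had 0 of the 6 members and 32 of the 485 genes, and the smallest unadjusted p of a member was 0.38, for Mir30e. The differences of Mir30e, Mir30a and Mir30d were thus larger than counting error, and did not pass when the spread of all genes between these pools was the error. That spread was estimated from the same differences that are tested, so few genes can pass and a failure to pass says little.

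**Figure D4:**
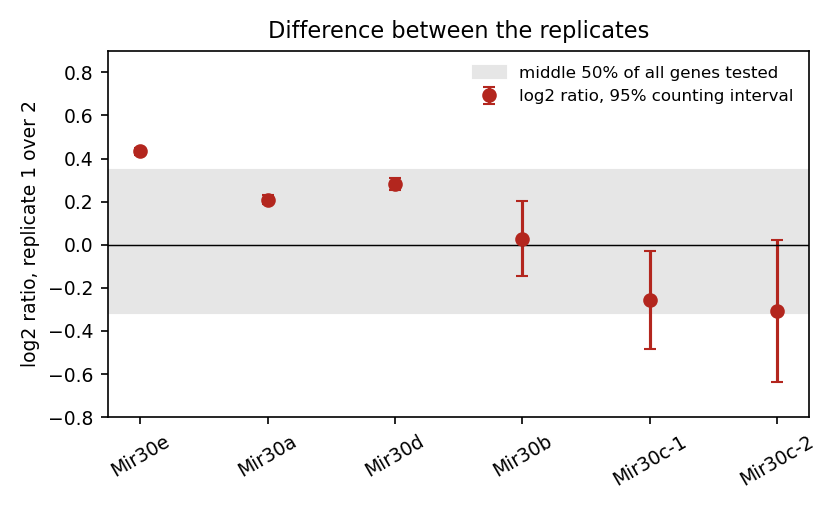
Log2 ratio of replicate 1 over replicate 2 for the 6 mir-30 genes, with 95% counting intervals, over a band that holds the middle 50% of all 485 genes tested. Mir30e, at 0.43, lies above the band, and the other 5 point values lie within it.

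The level of Mir384, the gene outside the family found with the mir-30 seed, was low beside those of Mir30e, Mir30a and Mir30d. Mir384 (ENSMUSG00000065499.1, chrX:105344282-105344369, minus strand), whose 5p strand equals those of mir-30 in the first 8 bases, is known from brain. It had 866 reads (263 CPM) in replicate 1 and 795 reads (216 CPM) in replicate 2, a mean of 239 ± 33.0 CPM at rank 178, above Mir30b and below Mir30d. It was higher in replicate 1, with a log2 ratio of 0.28 (0.14 to 0.42, binomial adjusted p = 0.00027), and did not pass edgeR's exact test. Mir30f, annotated over the same bases as Mir30e on the other strand and with another seed at bases 2 to 8, is not among the counted genes. In the row of Mir30e, 0 reads lay in the column read as the opposite strand in either library, which allows up to 3 reads in each.

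The genes of a family were unequal in level in the comparison families too, let-7, mir-26 and mir-29. The table of sequences is not complete, so a gene called single here is one with no mature sequence in another precursor of the table. Mir30e and Mir30a, single in this sense, had 19272 and 12156 CPM, against 93.2 and 45.0 CPM for Mir30c-1 and Mir30c-2, which share one. Mir26b was single at 27055 ± 1917 CPM, while Mir26a-1 and Mir26a-2, which share one, stood at 7.11 and 28.1 CPM. Mir29c and Mir29a, single, had 117 and 51.2 CPM, while Mir29b-2 and Mir29b-1, which share one, had 1.36 and 0.287 CPM. In let-7 the classes overlapped, with 6.57 to 4382 CPM over 6 single genes and 5.79 to 101 CPM over 4 that share a sequence. Only 1 mature sequence was found for Mirlet7a-2, counted here as single, so its other arm was not compared and its class is uncertain. Over all counted genes in the table the order of the medians was the opposite. The median was 0.862 CPM for the 831 single genes and 5.79 CPM for the 85 that share a mature sequence. No filter on reads was applied there, and 769 of the 1973 counted genes had a read in either library. These medians thus include genes without reads and do not describe detected genes alone. Of the single and the sharing genes, 87 and 8, or 10.5% and 9.41%, were above 1000 CPM. Whether the loss of multiply mapped reads set the low levels of the Mir30c genes was not tested.

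**Figure D5:**
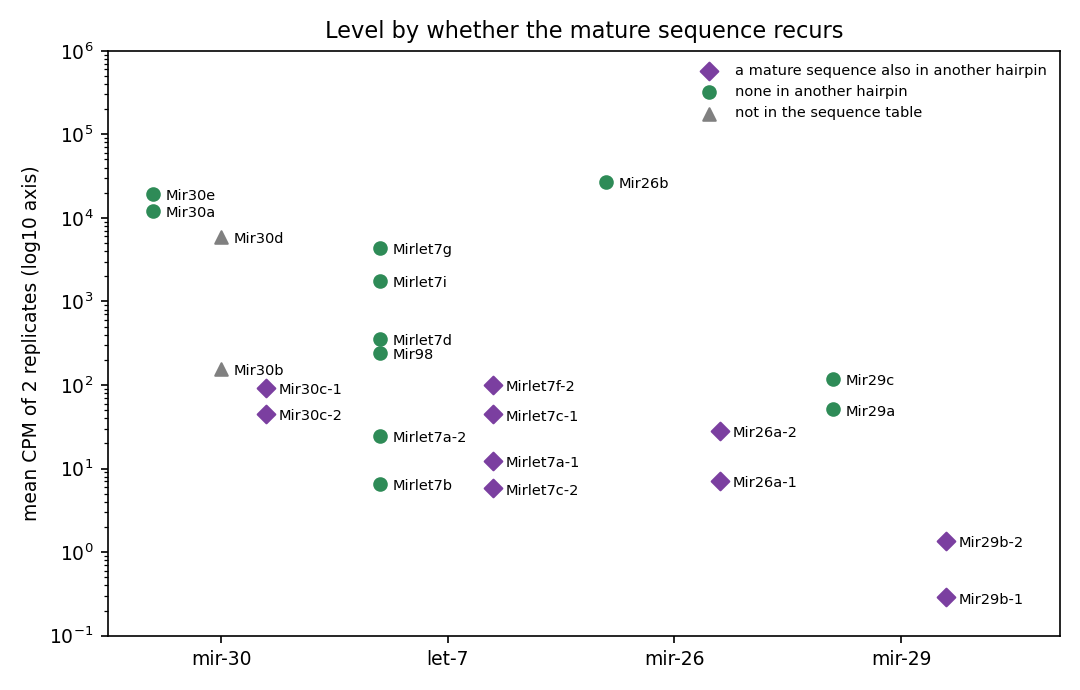
Mean CPM over 2 replicates (log10 axis) of the genes of the mir-30, let-7, mir-26 and mir-29 families, by whether a mature sequence also lies in another precursor (diamonds), in none (circles), or has no entry in the table (triangles). The diamonds lie below the circles in mir-30, mir-26 and mir-29, and the classes overlap in let-7.

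Set against other families known to accumulate as tissues mature, the mir-30 genes held the largest share of gene-assigned reads, which are uniquely mapped reads alone. Between the replicates, their log2 ratios had both signs and reached 0.43, while those of the let-7 genes were all positive, from 0.55 to 2.04. Ratios of opposite sign offset each other in the mir-30 median given below, so that median is not a size of difference. The mir-30 genes held 3.77% ± 0.620 of gene-assigned reads, against 0.693% ± 0.314 for let-7, 2.71% ± 0.192 for mir-26 and 0.0170% ± 0.00311 for mir-29 (SD, n = 2). Genes that share sequence, in these families too, can lose reads to the multiply mapped ones. Mirlet7e and Mirlet7f-1 were not matched to a counted gene, and 79 of the 1973 counted identifiers had no matched name. The order of the shares is therefore that of the counted reads of matched genes only. Of the 6 mir-30 genes 3 were called higher in replicate 1, with a median log2 ratio of 0.12, and of the 10 let-7 genes tested 10 were, with a median of 0.72, where 26.6% of all genes were called so. With DESeq2 size factors 8 let-7 genes were called, where 48.5% of all genes were in either direction and 115 of 485 higher in replicate 1. In edgeR's exact test 0 let-7 genes were called, where 0.412% of all genes were. At an unadjusted p under 0.05 that test had 2 of the 10 let-7 genes and 32 of the 485 genes. Of the 3 mir-26 genes, 1 was called, Mir26b, lower in replicate 1. Of the 4 mir-29 genes 2 were tested and 1 was called, Mir29c, higher in replicate 1. The median log2 ratio was −0.15 for mir-26 and 0.26 for mir-29, and the differences between families were not tested.

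By level in the 2 libraries, the genes nearest to Mir30e among 332 others of mean CPM 10 or more were Mir93, Mir99b and Mir322. Their distances from it in the plane of the log2 CPM of both replicates were 0.31, 0.42 and 0.63. Mir93, of the mir-106b-25 cluster, had 20416 and 19999 CPM in replicates 1 and 2. Mir99b had 25416 and 21177 CPM, and Mir322 had 14354 and 16447 CPM. Mir99b had its higher level in replicate 1, as Mir30e did, and Mir322 in replicate 2. Mir93 was higher in replicate 1 by a log2 ratio of only 0.02, less than the shift of −0.03 that DESeq2 size factors gave every gene.

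Markers of cell types gave this background for the tissue. The neural list, with 8 of 9 genes matched to counted ones and none of these at 0, summed to 26319 CPM in replicate 1 and 31197 CPM in replicate 2. Mir92b, known from neural progenitors, had 21245 and 25352 CPM in replicates 1 and 2, and Mir219a-2 had 4722 and 5580 CPM. The genes of miR-9 and miR-124, defining neural microRNAs, have copies at other loci and were low. Mir9-3 had 137 and 66.8 CPM and Mir9-2 had 0.910 and 1.09 CPM. Mir124a-2 had 17.0 and 9.78 CPM, Mir124a-3 had 4.85 and 9.23 CPM and Mir124a-1 had 2.12 and 0.543 CPM. In the neural list the binomial test called 2 genes higher in replicate 1, Mir9-3 and Mir124a-2, and 2 lower, Mir92b and Mir219a-2. Mir126a, of endothelium, had 26450 and 30780 CPM and was called lower in replicate 1 by the binomial test. The mesenchyme list, in which all 6 genes had reads, summed to 16222 CPM in replicate 1 and 13241 CPM in replicate 2, and all 6 were called higher in replicate 1 by the binomial test, which called 26.6% of all genes so. In edgeR's exact test 0 of the 6 passed, and 0 had an unadjusted p under 0.05. The epithelium list of 7 genes summed to 3397 and 4092 CPM. Of these, the binomial test called 2 higher and 5 lower in replicate 1, where it called 26.6% and 23.1% of all genes so. The liver marker Mir122 had 5.76 and 15.2 CPM and was called lower in replicate 1 by the binomial test. Of the muscle markers, Mir206 had 33 and 39 reads and Mir1a-1, Mir133a-1 and Mir133a-2 had 0 uniquely mapped reads. The mesenchyme genes thus differed in the direction of Mir30e, Mir30a and Mir30d beyond counting error only. The let-7 genes differed in that direction too, with a median log2 ratio of 0.72 against 0.31 for the mesenchyme list. The part of either list in the difference of Mir30e, Mir30a and Mir30d was not tested.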

How the data were processed

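For each library 1 deposited file gives raw counts of reads by microRNA gene, from reads the authors aligned to mm10 and assigned on GENCODE M4, per the description deposited with it. The sources used here give neither aligner nor trimming. There are 3 count columns without names. The first equals the sum of the others in all 1973 gene rows and was used, and the second, with 97.4% and 97.3% of the gene-assigned reads, was read as the gene's strand. Unmapped, multiply mapped and unassigned reads, 57.8% and 60.9% of the 7810040 and 9423767 reads, stayed out of library sizes.

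Identifiers were matched without version to GENCODE M21 on the same build (1894 of 1973). CPM values, means and SDs, TMM-scaled ratios with exact counting intervals and the binomial test (genes with at least 10 reads in sum) were computed. The intervals and the test take reads as independent. Lists use ratios with 0.5 added reads. The members and lists were chosen with earlier results of these data known. Named genes are the members, genes with their seed, the 3 genes nearest to Mir30e in level, the most abundant gene of each comparison list and genes within 10 kb. The marker genes and the mir-26 and mir-29 genes given singly were chosen after their values were seen. Of the listed symbols, Mirlet7e, Mirlet7f-1, Mir9-1, Mir486a and Mir1a-2 were not matched. The erythroid list is in the closing section. The binomial test was tried on simulated counts that varied by counting error alone. That trial cannot show how the test behaves with further spread between pools. Alternatives were other scalings, filters, columns and denominators, edgeR's exact test and each replicate alone. The work used edgeR 4.0.16, DESeq2 1.42.0 and R 4.3.3, and Python 3.11.15 with scipy 1.17.1, statsmodels 0.14.6, pandas 2.3.3, numpy 2.4.6 and matplotlib 3.10.9.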

Additional observations from a re-analysis of the deposited data

How the results depend on the processing

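With all reads of a library as the denominator, the family's share was 1.54%, with 1.78% in replicate 1 and 1.30% in replicate 2. Leaving out 1 replicate gave shares of 3.33 to 4.21%, ratios of 162 to 260 for Mir30e over Mir30c-1, 227 to 324 for Mir30a over Mir30c-2 and 34.7 to 41.4 for Mir30d over Mir30b. The order of the 6 members was the same in each library, while the other denominator and column could not change it. Under edgeR's exact test with the common dispersion, 0 of the 6 mir-30, 10 let-7, 3 mir-26 and 2 mir-29 genes tested were called. The binomial test called 3, 10, 1 and 1 of them. Of all genes tested, these tests called 0.412% and 49.7%. With DESeq2 size factors or at least 100 reads in sum, the binomial test called 4 mir-30 genes, Mir30c-1 added. In these settings it called 48.5% and 67.9% of all genes tested, so with the filter 4 of 6 is about the share of all genes. With no filter on reads, 2 mir-29 genes were called, and 29.6% of all genes. The let-7 genes called numbered 7 to 10 over the scalings, filters and columns. They were 8 under DESeq2 size factors and 8 with no filter, beside the shares of all genes given above. With the second column they were 9, where 48% of all genes were called. With at least 100 reads in sum they were 7, which were all the let-7 genes tested there. Mirlet7a-1, Mirlet7b and Mirlet7c-2 had too few reads for that filter. DESeq2 size factors gave Mir30b a log2 ratio of −0.0068, and shifted every log2 ratio by −0.03. With genes of at least 100 reads in sum, the binomial adjusted p of Mir30c-1 was 0.038, and over all alternatives of scaling, filter and column it ran from 0.027 to 0.081. The alternatives for the comparison families and for the summed ratio of the family, 1.23 to 1.26, were added after the data were seen. No paired analysis was possible because the samples form 1 group. The depth limits Mir30c-2, with 133 and 183 reads, to a counting interval of 0.642 to 1.02 for its ratio.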

Other observations

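The erythroid markers Mir451a and Mir144 had 354 and 32.1 CPM in replicate 1 and 295 and 43.7 CPM in replicate 2. The listed Mir486a was not matched, but a gene counted under the symbol Mir486 had 17.6 CPM in replicate 1 and 34.8 CPM in replicate 2. The binomial test called Mir451a higher and Mir144 and Mir486 lower in replicate 1, where it called 26.6% and 23.1% of all genes so. The log2 ratios differed in sign within 2 of the 3 mir-30 loci. At the Nfyc locus they were 0.43 for Mir30e and −0.25 for Mir30c-1, and on chromosome 1 they were 0.21 for Mir30a and −0.31 for Mir30c-2, while on chromosome 15 they were 0.28 for Mir30d and 0.03 for Mir30b. By point value, the Mir30c genes of different chromosomes were thus closer to each other than to the genes beside them. Neither Mir30c gene passed the binomial test with TMM scaling (adjusted p = 0.051 and 0.12). Their counts leave out the reads that fit both loci, so the likeness is not a measure of their common 5p strand. With 6 genes and 2 libraries this likeness is a description, and no test was made of it.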
